A study of Mus musculus with 45 samples.

Results

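Microglia genes were followed across the dissected and sorted mouse dentate gyrus (DG), the hippocampal region that holds adult neural stem cells (NSCs) and the intermediate progenitor cells (IPCs) derived from them. The 9 genes, Aif1, Cx3cr1, P2ry12, Tmem119, Csf1r, C1qa, C1qb, C1qc and Ctss, were taken by symbol from a table of 49922 genes, and each of the 9 was found once in it. All are known as markers of microglia, the resident macrophages of the brain. All samples came from C57Bl6J NestinGFP mice of 6 to 9 weeks, in which regulatory elements of Nestin drive GFP. The values came from 38 libraries. A first cohort of untreated mice gave 9 NSC libraries and 9 IPC libraries, which are 3 technical replicates from each of the same 3 mice, and 3 libraries of whole DG from 3 other mice. A second cohort was killed 4 h after lateral fluid percussion injury, a model of traumatic brain injury (TBI), or after sham surgery, and the DG on the operated side was taken. It gave NSC libraries from 3 TBI and 2 sham mice, IPC libraries from 3 TBI and 3 sham mice, and whole DG libraries from 3 TBI and 3 sham mice that were not sorted.

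For each sorted library 300 live cells were collected, and per the study only part of their lysate went into cDNA synthesis. The cells were negative for CD31, CD45, O1 and O4, and, per the series description, for Cd11b. Within that gate NSCs were GFP+ and GLAST+, and IPCs were GFP+ and GLAST-. CD45 and Cd11b are the leukocyte surface proteins encoded by Ptprc and Itgam, so the gate was set to leave microglia out. GFP from Nestin elements is also on in endothelial and oligodendroglial cells, which is what CD31, O1 and O4 are there to exclude. Sorted cells went through SMART-Seq HT cDNA synthesis, whereas whole DG RNA was extracted and made into libraries with another kit. Any difference between sorted cells and whole DG therefore cannot be told apart from a difference in kit and input. The labels give whole DG as NestinGFP, while the study's own account describes wild-type animals there.

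Microglia survey brain tissue with motile processes, clear dying cells and debris, and prune synapses, partly through complement. Their survival depends on the receptor Csf1r and its ligands Csf1 and Il34, and the receptors P2ry12 and Cx3cr1 steer them by purine nucleotides and by the neuronal chemokine Cx3cl1. In the DG they take up newborn cells that die near the stem cell layer.

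Libraries of untreated mice held 9965648 to 18433794 reads in genes and those of the injury cohort 9306038 to 21642781. The values are counts divided by a library size factor (normalized counts), set separately in the 2 cohorts, so levels are not compared between cohorts. A count of 3 reads corresponds to 1.69 to 4.92 normalized counts, and values under it are near the limit of detection. Normalized counts summed over all genes to 10384288 to 11020913 in untreated NSC libraries, against 17410435 to 17631161 in untreated DG. An equal normalized count is thus a larger share of an NSC library than of a DG library. Markers of other cells were present in the sorted libraries: 6 endothelial markers summed to 38967 to 59829 in untreated NSC libraries and 9571 to 60927 in untreated IPC libraries, against 800 to 1315 in untreated DG. The 5 mature neuron markers summed to 1358 to 3210 in untreated NSC libraries and 2678 to 4718 in untreated IPC libraries, against 125428 to 155566 in untreated DG.

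The 9 genes lie at 7 places in the genome. C1qb, C1qc and C1qa, which encode the chains of the complement recognition molecule C1q, stand side by side on the minus strand of chromosome 4 (GRCm38, GENCODE M21) at positions 136880129 to 136886187, 136889804 to 136893065 and 136895917 to 136898803. The others are single. Aif1 lies on chromosome 17 at 35170991 to 35176068, Cx3cr1 on chromosome 9 at 119901616 to 120069879, P2ry12 on chromosome 3 at 59216272 to 59262871 and Tmem119 on chromosome 5 at 113793729 to 113800516, all on the minus strand. Ctss on chromosome 3 at 95526786 to 95556403 is on the plus strand, and so is Csf1r. Reads were counted without strand, so a gene on the other strand can add to a count or take from it. All 2546 exonic bases of P2ry12 lie inside Med12l on the opposite strand, 9 of them in its exons, and 873 exonic bases of Csf1r are shared with Hmgxb3. Med12l itself had 0 to 172 normalized counts in untreated NSC libraries and 0 to 491 in untreated IPC libraries, against 301 to 466 in untreated DG. Hmgxb3 had 0 to 402 in untreated NSC libraries and 0 to 494 in untreated IPC libraries, against 1281 to 1558 in untreated DG. How much of the P2ry12 and Csf1r values comes from these neighbours was not tested.

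Because these genes moved together in the untreated cells, their promoters were read for the core of the motif bound by PU.1 (Spi1), the transcription factor that macrophages need. Promoters were windows of 300 bases over the RefSeq gene start on GRCm38.p6, and 6 of the 9 genes were matched and searched. GAGGAAG, on either strand, occurred in 2 of the 6, Ctss and C1qc, and in 13.6% of 32851 promoters. The shorter GAGGAA, which the longer motif contains, occurred in 4 of the 6, in Aif1 and C1qb as well, and in 28.3% of promoters. Cx3cr1 and P2ry12 held neither. The 4 promoters with a match are given 5′ to 3′ in the direction of the gene, with the matched bases of the motif or its reverse complement in capitals. They are Ctss at chr3:95526536-95526835 on the plus strand, and C1qc at chr4:136892865-136893164, C1qb at chr4:136886151-136886450 and Aif1 at chr17:35176003-35176302 on the minus strand.
Ctss: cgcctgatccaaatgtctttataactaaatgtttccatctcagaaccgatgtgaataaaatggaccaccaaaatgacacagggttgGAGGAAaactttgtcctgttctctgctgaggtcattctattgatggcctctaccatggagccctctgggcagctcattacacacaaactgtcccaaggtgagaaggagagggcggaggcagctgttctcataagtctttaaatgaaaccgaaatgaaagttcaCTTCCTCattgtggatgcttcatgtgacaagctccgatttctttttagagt
C1qc: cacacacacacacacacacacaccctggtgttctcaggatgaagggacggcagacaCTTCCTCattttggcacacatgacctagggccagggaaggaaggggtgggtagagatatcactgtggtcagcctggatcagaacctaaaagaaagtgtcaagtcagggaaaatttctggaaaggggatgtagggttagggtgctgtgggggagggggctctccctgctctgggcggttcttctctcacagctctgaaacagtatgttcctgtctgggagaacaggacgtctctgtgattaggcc
C1qb: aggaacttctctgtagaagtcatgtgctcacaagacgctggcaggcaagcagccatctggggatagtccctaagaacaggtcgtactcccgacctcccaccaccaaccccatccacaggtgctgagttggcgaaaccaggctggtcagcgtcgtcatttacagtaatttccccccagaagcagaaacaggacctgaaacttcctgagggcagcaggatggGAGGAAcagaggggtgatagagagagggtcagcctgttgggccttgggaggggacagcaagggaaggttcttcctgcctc
Aif1: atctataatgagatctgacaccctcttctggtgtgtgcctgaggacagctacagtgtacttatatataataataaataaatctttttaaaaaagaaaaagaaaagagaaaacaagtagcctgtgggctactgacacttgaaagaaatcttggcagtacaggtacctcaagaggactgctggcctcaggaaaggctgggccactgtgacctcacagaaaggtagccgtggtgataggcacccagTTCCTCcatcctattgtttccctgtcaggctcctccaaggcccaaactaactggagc
The match in Ctss lies at the gene start and has a second short match upstream, while that in C1qc lies far upstream. These matches describe letters in a window and were not tested for binding.

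In untreated mice the question was how far the sorted NSCs, the sorted IPCs and the whole DG differ. All 9 microglia genes were higher in NSCs than in IPCs by their fitted difference, between 2.67 on the log2 scale for P2ry12 and 5.45 for Aif1, and 3 of the 9, Aif1, C1qb and Ctss, passed the test. These 3 calls came from a fit that shared its spread with whole DG. They were lost in a fit of NSCs and IPCs alone and with the mouse as a block. Between NSCs and whole DG only Csf1r was called, lower in NSCs, and the other 8 did not pass the test. In IPCs all 9 were called lower than in whole DG. All 9 passed the filter on low values, a mean of at least 10 over the fitted mice. Aif1 did so only through NSCs and DG, because its IPC values were near the limit of detection. The call throughout was limma on log2(normalized count + 1) with an adjusted p under 0.05 and a log2 difference of at least 1, with the mouse as the replicate.

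Among surface receptors, Csf1r, which lies on chromosome 18 at 61100598 to 61132149 and encodes the receptor for the survival factors Csf1 and Il34, was lowest at 98.7 in untreated NSC libraries, with a median of 304 and a highest value of 1458. In untreated IPC libraries it was between 1.52 and 154 with a median of 24.6, and the untreated DG libraries had 2749, 2756 and 2877. Every NSC and IPC library was below every DG library, and the NSC and IPC libraries overlapped. Csf1r was lower in NSCs than in DG by a log2 difference of -2.79 ± 0.75 (SE, adjusted p = 0.0139) and lower in IPCs than in DG by -6.38 ± 0.75 (adjusted p = 0.000191). The NSC over IPC difference of 3.59 ± 0.75 did not pass (adjusted p = 0.0549). The call against DG in NSCs was lost with edgeR, at -2.18 (adjusted p = 0.0539).

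Cx3cr1, the receptor for the neuronal chemokine Cx3cl1, ranged from 84.9 to 1174 in untreated NSC libraries (median 448) and from 1.52 to 272 in untreated IPC libraries (median 38.5), against 1022, 1079 and 1139 in untreated DG. NSC and IPC libraries overlapped, but every IPC library was below DG. The log2 difference was 2.85 ± 0.80 for NSC over IPC (adjusted p = 0.122) and -4.28 ± 0.80 for IPC over DG (adjusted p = 0.00248). P2ry12, the ADP receptor that draws microglial processes to damage, ranged from 119 to 2295 in NSC libraries (median 751) and from 5.31 to 1375 in IPC libraries (median 53.5), against 796, 1036 and 952 in DG. It was the member with the smallest NSC over IPC difference, 2.67 ± 0.90 (adjusted p = 0.187), and it was called lower in IPCs than in DG at -2.83 ± 0.90 (adjusted p = 0.0298). Med12l, inside which it lies, was counted in the same libraries.

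Tmem119, a membrane protein used to tell microglia from blood-derived macrophages, spread more than any other member among NSC libraries, between 4.42 and 923 with a median of 214. It was 1.52 to 144 in IPC libraries (median 6.96) and 841, 644 and 815 in DG. NSC and IPC libraries overlapped, though the mean of each NSC mouse was above that of each IPC mouse. The NSC over IPC difference was 4.28 ± 0.88 (adjusted p = 0.0517), just short of the call, and IPC over DG was -5.88 ± 0.88 (adjusted p = 0.000758). Within NSC mouse 2 the highest of the 3 technical replicates was 209 times the lowest.

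Aif1, the actin-bundling protein Iba1 that is the common stain for microglia, gave the clearest separation. It was 37.5 to 196 in untreated NSC libraries (median 136) and 0 to 6.17 in untreated IPC libraries (median 2.18), against 100.1, 97.2 and 114 in untreated DG. All 9 NSC libraries were above all 9 IPC libraries, 3 of which were at 0, and no IPC library had a value past the filter of the study for Aif1. By mouse, NSCs averaged 125 ± 34.1 and IPCs 1.96 ± 1.26, against 104 ± 9.06 in DG (SD, n = 3 mice each). The log2 difference was 5.45 ± 0.53 for NSC over IPC (adjusted p = 0.00486) and -5.22 ± 0.53 for IPC over DG (adjusted p = 8.19e-05). With 6 of the 9 IPC libraries at 3 reads or fewer, Aif1 passed the filter on low values only through NSCs and DG. The size of both differences thus depends on the 1 added to each normalized count before the log. NSCs and DG were not told apart, at 0.23 ± 0.53 with a 95% interval from -0.98 to 1.43.

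C1qb, the B chain of C1q, was 801 to 3946 in untreated NSC libraries (median 1272) and 10.6 to 351 in untreated IPC libraries (median 57.3), against 1497, 1432 and 1497 in DG. Every NSC library was above every IPC library, and IPC libraries were all below DG. NSC over IPC was 3.53 ± 0.35 (adjusted p = 0.00575) and IPC over DG was -3.49 ± 0.35 (adjusted p = 8.22e-05), while NSC over DG was 0.04 ± 0.35 (95% interval -0.77 to 0.84). C1qa, the A chain, was 72.6 to 1474 in NSC libraries (median 482) and 3.03 to 626 in IPC libraries (median 16.9), against 337, 384 and 521 in DG. C1qc, the C chain, was 97.3 to 3704 in NSC libraries (median 559) and 4.55 to 491 in IPC libraries (median 62.5), against 1226, 1086 and 1251 in DG. For both chains NSC and IPC libraries overlapped, and NSC over IPC was 3.35 ± 1.00 for C1qa (adjusted p = 0.142) and 3.43 ± 0.95 for C1qc (adjusted p = 0.117). Both were called lower in IPCs than in DG, C1qa at -3.06 ± 1.00 (adjusted p = 0.0327) and C1qc at -4.07 ± 0.95 (adjusted p = 0.0075). The calls of C1qa and P2ry12 for IPC over DG were lost with edgeR, at -1.72 (adjusted p = 0.175) and -1.60 (adjusted p = 0.168), and with DESeq2. They were also lost with libraries rescaled to the same total (limma adjusted p = 0.0667 and 0.0672) and in a fit of IPCs and DG alone. Leaving out IPC mouse 1, IPC mouse 3 or any 1 of the DG mice lost them too. The adjusted p over these fits was 0.0617 to 0.175 for C1qa and 0.0523 to 0.168 for P2ry12, and 7 to 9 members were called as single mice were left out.

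Ctss, the lysosomal protease cathepsin S that acts in antigen processing, was 808 to 3909 in untreated NSC libraries (median 1275) and 6.07 to 352 in untreated IPC libraries (median 61.5), against 1460, 1290 and 1633 in DG. The NSC and IPC libraries did not overlap. NSC over IPC was 4.03 ± 0.36 (adjusted p = 0.00423) and IPC over DG was -3.94 ± 0.36 (adjusted p = 4.73e-05). NSC over DG was 0.10 ± 0.36, with a 95% interval from -0.72 to 0.92.

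**Figure D1:**
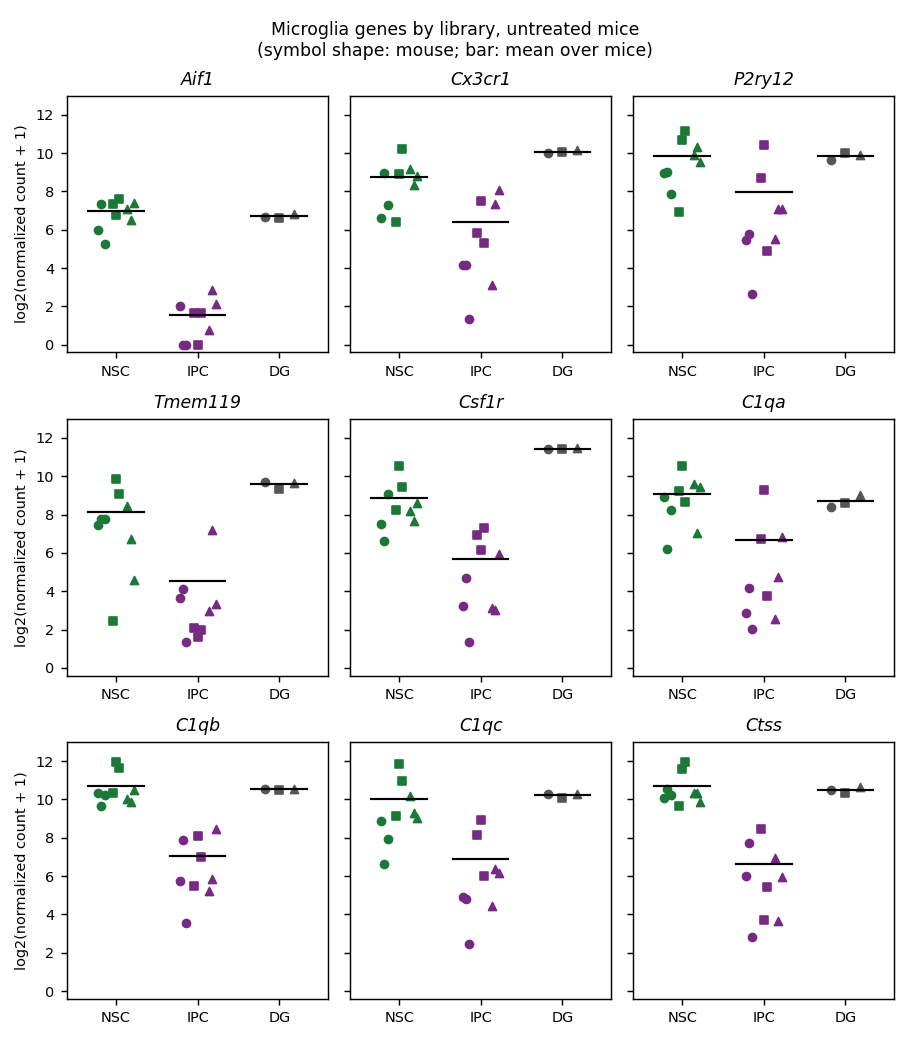
Normalized counts of the 9 genes in each untreated library on a log2(value + 1) axis, for NSC, IPC and DG from left to right; the symbol shape marks the mouse and the bar the mean over 3 mice. Aif1, C1qb and Ctss show NSC libraries wholly above IPC libraries, and Csf1r shows all NSC libraries below the DG libraries.

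For all genes tested in these comparisons, 1.15% were called higher in NSCs than in IPCs, 30.7% lower in NSCs than in DG and 31.1% lower in IPCs than in DG, against 3, 1 and 9 of the 9 members. The median log2 difference of the members was 3.53 for NSC over IPC, -0.16 for NSC over DG and -4.07 for IPC over DG, and that of all genes was 0.00044, -0.64 and -0.68. All 9 members had an unadjusted p under 0.05 for NSC over IPC, as did 17.4% of all genes. Mouse means did not overlap for 7 of 9 members between NSCs and IPCs, with NSCs above, against 9.97% of all genes. All 9 had IPC mice below DG mice, as did 43.0% of all genes. Because both sorted populations came from the same mice, the fit was repeated with the mouse as a block: 0 of 9 members and 0 of 16552 genes were called, and Aif1, C1qb and Ctss lost their call (limma adjusted p = 0.187, 0.152 and 0.135 with the block). A fit on NSCs and IPCs alone without the block also called 0 members, with an adjusted p of 0.0842 for Aif1 and 0.0557 for C1qb and Ctss. The calls of other genes between untreated NSCs and IPCs given further on were lost with the block as well. Leaving out IPC mouse 2 raised the count to 7, and leaving out only its technical replicate 2 raised it to 6. The shares of all genes called in those 2 fits are not given here. In bulk samples, fewer microglia and less of the RNA per microglial cell cannot be told apart. Which cells this RNA came from was not tested.

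**Figure D2:**
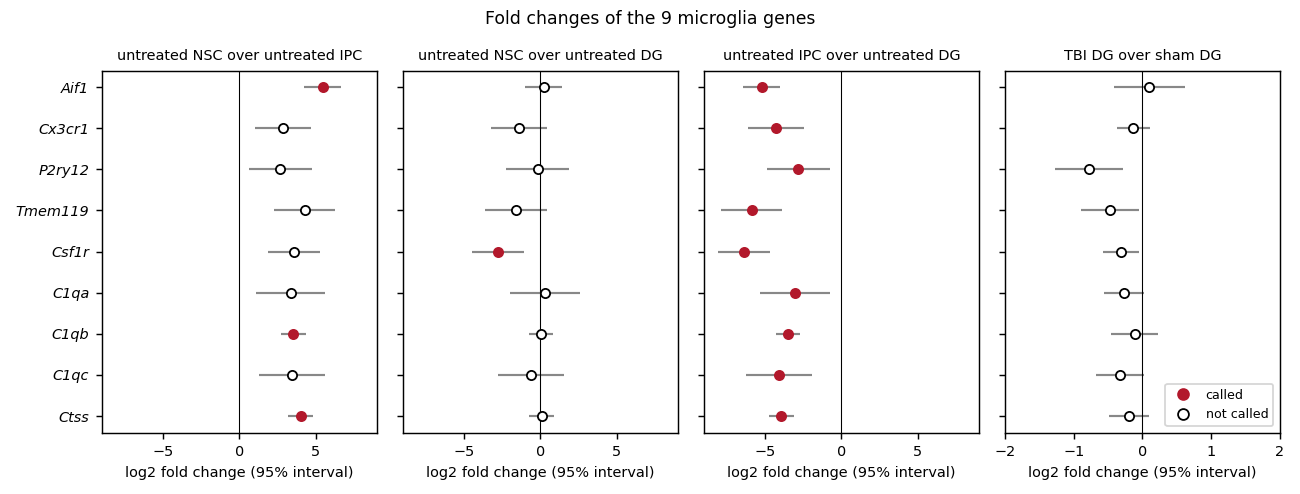
Fitted log2 fold changes of the 9 genes with 95% intervals in 4 comparisons, named over each panel; filled red points were called and open points were not, and the TBI panel has a narrower axis. All 9 points lie right of 0 for NSC over IPC and left of 0 for IPC over DG.

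The gate genes moved with the members in part. Ptprc was 0 to 140 in untreated NSC libraries (median 12.2) and 0 to 120 in untreated IPC libraries (median 0.76), against 27.1, 46.9 and 41.3 in untreated DG. Its NSC over IPC difference was 3.45 ± 1.21 (adjusted p = 0.198), not called. Itgam, which the table lists in 2 rows, had medians of 2.11 and 0.88 in NSC libraries and reached 262 and 173 in 1 of them, while no IPC library was above 1.55 and DG libraries had 190 to 293. Ptprc was 82.1 to 140 in 4 of the 9 NSC libraries, above every DG library, and 0 to 12.2 in the other 5, while C1qb and Ctss stood at 801 or more in all 9. The 7 border macrophage markers summed to 0.91 to 1028 in NSC libraries (median 55.7) and 0 to 37.4 in IPC libraries (median 2.91), against 155 to 308 in DG. Of those 7, Cd163, Lyve1 and Ms4a7 were at 0 in every IPC library. The part of border macrophages in the differences was not tested. The endothelial markers moved the same way: all 6 had a positive NSC over IPC difference, with a median of 1.53, and 1 of them, Ly6c1, was called. Of all genes 50% had a positive difference and 1.15% were called higher. The 4 pericyte markers went the other way: 0 had a positive difference, with a median of -1.12, and 1 was called lower, against 0.482% of all genes.

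**Figure D3:**
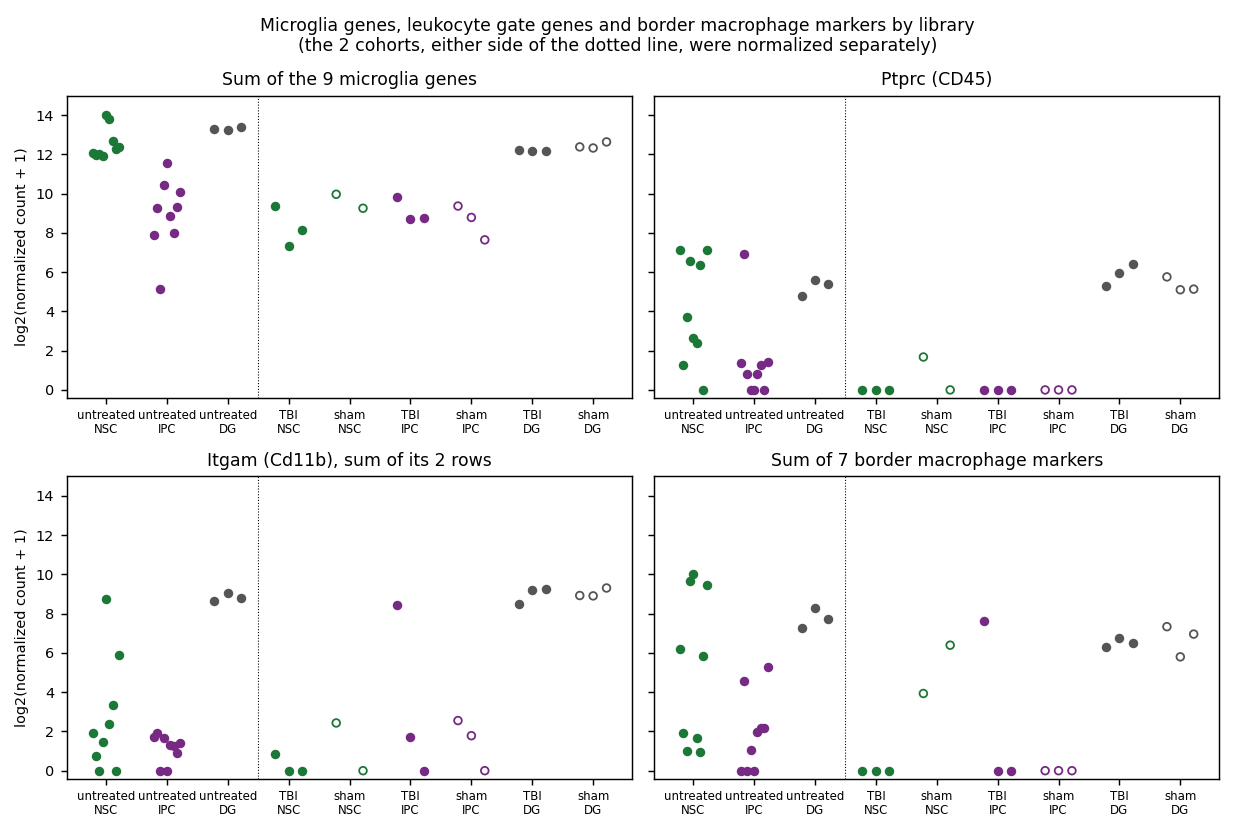
Summed normalized counts of the 9 microglia genes, of Ptprc, of Itgam and of 7 border macrophage markers in each library, on a log2(value + 1) axis; filled symbols are untreated or TBI and open symbols sham. Microglia gene sums in untreated NSC libraries, 3919 to 16772, stand beside 9804 to 10800 in DG, while Ptprc and Itgam are at or near 0 in several of the NSC libraries.

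Summed over the 9 members, normalized counts were 3919 to 16772 in untreated NSC libraries (median 4952) and 34.1 to 3027 in untreated IPC libraries (median 607), against 9804 to 10800 in untreated DG. The coverage filter of the study, CLEAR, which drops from a library the genes below the expression level at which reads mostly no longer cover transcripts evenly, kept 77 of 81 member values in NSC libraries and 35 of 81 in IPC libraries, against 27 of 27 in DG. The filter thus kept nearly all member values in NSC libraries and fewer than 1 in 2 in IPC libraries. Spread between technical replicates of a mouse was wide: the SD of log2 values was 0.58 to 2.60 across members in NSCs (median 1.1) and 1.07 to 2.23 in IPCs (median 1.77). Other genes of the same range of levels had medians of 0.81 in NSCs and 2.26 in IPCs.

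Per kb of exonic length, the order of the levels differed between NSCs and DG, and most for Csf1r. In NSCs the order was C1qb at 1541 normalized counts per kb, Ctss at 1228, C1qc at 540, C1qa at 525, P2ry12 at 362, Tmem119 at 122, Cx3cr1 at 94.7, Aif1 at 81.4 and Csf1r at 79.7. All neighbours in that order overlapped between mice. In DG the order was C1qb at 1356, Ctss at 1076, C1qc at 615, Csf1r at 484, C1qa at 398, P2ry12 at 364, Tmem119 at 331, Cx3cr1 at 240 and Aif1 at 67.8. Csf1r was thus in place 9 in NSCs and in place 4 in DG. In DG the neighbours from Csf1r to Tmem119 overlapped between mice and the others did not. C1qa carried 8.15 to 32.0% of the per-kb C1q chain sum in NSC libraries and 13.9 to 19.8% in DG libraries.

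In the injury cohort the question was whether TBI changed these genes within 4 h in each population. None of the members was called between TBI and sham in NSCs, IPCs or whole DG by limma, edgeR or DESeq2, and limma called 0.0% of all genes in each of these 3 comparisons. Of the members, 0 of 8 tested in NSCs and 0 of 8 in IPCs had an unadjusted p under 0.05, against 4.3% and 4.43% of all genes, and 3 of 9 in DG did. Over all genes DESeq2 called 247, 102 and 206, and edgeR 0 in each. Whole DG had the narrowest spread, and there Cx3cr1, P2ry12, Tmem119, Csf1r and C1qa stood lower in each TBI mouse than in each sham mouse. In the sorted cells most members were at low counts and scattered between mice. Depth there moved with injury: reads in genes were 15396980 to 17815630 in TBI NSCs against 11946122 to 13115310 in sham NSCs, and 16383626 to 21642781 in TBI IPCs against 9622762 to 12834759 in sham IPCs. The library names also place the sorted TBI and sham libraries on different sequencing lanes, so depth, lane and injury cannot be told apart in sorted cells.

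In whole DG, P2ry12 had 231, 138 and 137 normalized counts in the TBI mice, against 244, 306 and 293 in the sham mice. The log2 difference was -0.77 ± 0.22 (unadjusted p = 0.00627, limma adjusted p = 0.145), the largest among the members. Med12l, on the other strand at that position, had 446 to 521 in TBI DG and 608 to 794 in sham DG, so both stood lower.

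Tmem119 had 233, 173 and 190 in TBI DG, against 258, 234 and 345 in sham DG, a log2 difference of -0.48 ± 0.19 (limma adjusted p = 0.214). Csf1r had 1124, 1100 and 1036 in TBI DG, against 1298, 1224 and 1526 in sham DG, a difference of -0.31 ± 0.12 (adjusted p = 0.205). Neither gene's groups overlapped, although the nearest Tmem119 mice differed by about 1 normalized count. C1qa had 567, 581 and 537 in TBI DG, against 592, 679 and 775 in sham DG, a difference of -0.27 ± 0.13 (adjusted p = 0.274). Cx3cr1 had 646, 705 and 700 in TBI DG, against 749, 758 and 735 in sham DG. These also did not overlap, and neither gene was called.

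For the other members TBI and sham DG overlapped. C1qc had 477, 493 and 506 in TBI DG, against 622, 498 and 752 in sham DG, a log2 difference of -0.32 ± 0.16 (limma adjusted p = 0.28). C1qb had 695, 681 and 765 in TBI DG, against 783, 625 and 935 in sham DG. Ctss had 688, 716 and 759 in TBI DG, against 753, 767 and 977 in sham DG, where the highest TBI mouse lay just above the lowest sham mouse. Aif1 had 55.7, 46.3 and 50.0 in TBI DG, against 49.0, 52.1 and 40.8 in sham DG. The fitted log2 differences of Cx3cr1, C1qb, Ctss and Aif1 ran from -0.20 to 0.10.

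Those 3 members with an unadjusted p under 0.05 between TBI and sham DG, P2ry12, Tmem119 and Csf1r, stand beside 19.9% of all genes. In 5 of the 9 every TBI mouse was below every sham mouse, as in 13.9% of all genes. The members' median log2 difference was -0.27, and that of all genes was -0.04. The sum of the 9 was 4633 to 4718 in TBI DG, against 5144 to 6380 in sham DG. C1qa carried 34.8 to 38.8% of the per-kb C1q chain sum in TBI DG and 35.4 to 43.9% in sham DG.

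**Figure D4:**
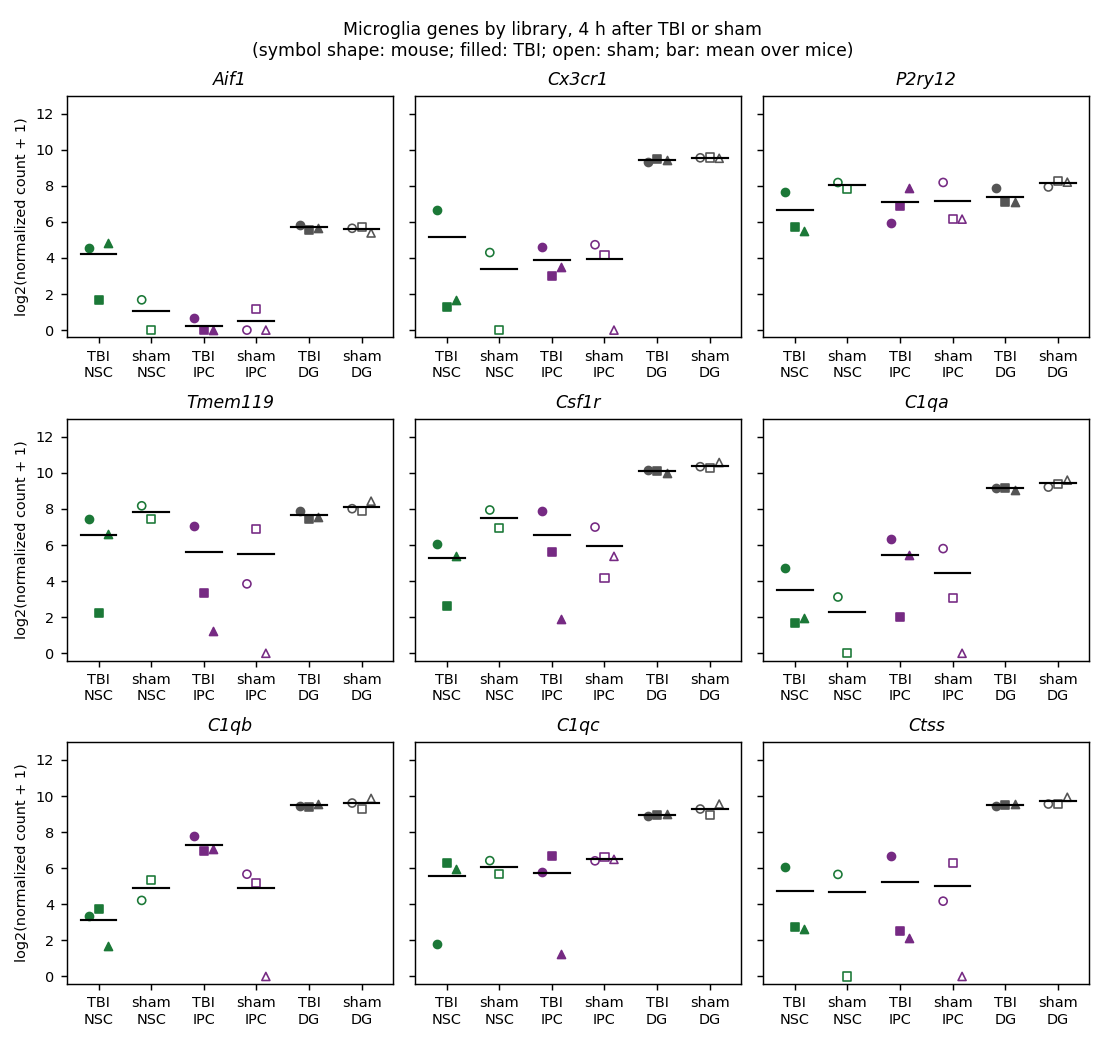
Normalized counts of the 9 genes in each library of the injury cohort on a log2(value + 1) axis; within NSC, IPC and DG the TBI mice (filled) stand left of the sham mice (open), the symbol shape marks the mouse and bars are means over mice. The DG groups are tight, with P2ry12 at 137 to 231 in TBI and 244 to 306 in sham, while sorted libraries scatter and several are at 0.

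In sorted NSCs, P2ry12 had 199, 52.4 and 43.8 normalized counts in TBI mice, against 289 and 227 in sham mice. Csf1r had 65.5, 5.09 and 41.6 in TBI NSCs, against 245 and 122 in sham NSCs. C1qb had 9.12, 12.4 and 2.19 in TBI NSCs, against 17.6 and 40.2 in sham NSCs. In these 3 members every TBI mouse was below both sham mice, as in 10.2% of all genes. The log2 difference was -1.72 ± 0.83 for P2ry12 (unadjusted p = 0.0795) and -2.75 ± 1.26 for Csf1r (unadjusted p = 0.0664), both with a limma adjusted p of 0.944.

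Tmem119, at 175, 3.64 and 96.4 in TBI NSCs against 288 and 173 in sham NSCs, overlapped narrowly. C1qc had 2.49, 77.1 and 62.1 in TBI NSCs, against 84.7 and 49.6 in sham NSCs, and Ctss had 67.1, 5.82 and 5.11 in TBI NSCs, against 49.5 and 0 in sham NSCs. Cx3cr1 was 100.3, 1.45 and 2.19 in TBI NSCs, against 18.7 and 0 in sham NSCs. Aif1 was 22.4, 2.18 and 27.8 in TBI NSCs, against 2.2 and 0 in sham NSCs. TBI NSC mouse 1 held the highest value of Cx3cr1, P2ry12, Tmem119, Csf1r, C1qa and Ctss in its group. Mouse 2 held the highest of C1qb and C1qc, and mouse 3 that of Aif1. C1qa, at 25.7, 2.18 and 2.92 in TBI NSCs against 7.70 and 0 in sham NSCs, was under the mean of 10 needed for testing, so 8 of the 9 members were tested there.

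In sorted IPCs, C1qb had 218, 123 and 131 normalized counts in TBI mice, against 49.9, 35.4 and 0 in sham mice. It was the one member with every TBI mouse above every sham mouse, as in 4.68% of all genes. Its log2 difference was 3.64 ± 1.59 (unadjusted p = 0.0531, limma adjusted p = 0.915), and so it was not called. C1qa had 80.0, 3.1 and 43.4 in TBI IPCs, against 54.8, 7.32 and 0 in sham IPCs, and C1qc had 53.5, 102 and 1.36 in TBI IPCs, against 84.0, 97.6 and 89.0 in sham IPCs. The other C1q chains thus overlapped between the groups. In sham IPC mouse 6, 6 of the 9 members, C1qb among them, were at 0.

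P2ry12 had 59.7, 115 and 236 in TBI IPCs, against 290, 70.8 and 70.1 in sham IPCs. Csf1r had 232, 48.8 and 2.71 in TBI IPCs, against 127, 17.1 and 40.4 in sham IPCs, and Tmem119 had 131, 9.30 and 1.36 in TBI IPCs, against 13.4, 118 and 0 in sham IPCs. Ctss had 101, 4.65 and 3.39 in TBI IPCs, against 17.1, 76.9 and 0 in sham IPCs. All 4 overlapped. Cx3cr1 was between 6.98 and 23.7 in TBI IPCs and between 0 and 25.6 in sham IPCs, and Aif1, at or under 1.22 in all 6 libraries, was not tested. TBI IPC mouse 1 had the highest Cx3cr1, Csf1r, Tmem119, C1qa, C1qb and Ctss of its group, and it was also the only sorted library of the injury cohort with Itgam well above the floor, at 193 and 158 in its 2 rows, and its border macrophage markers summed to 198, against 14.3 and 83.2 in the sham NSC libraries and 0 in the other sorted libraries. Its Ptprc was 0, as in all 6 IPC libraries. The part of such cells in its values was not tested.

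Ptprc was 0 in every TBI NSC library and reached 2.2 in the sham NSC libraries, against 37.7 to 84.5 in TBI DG and 33.4 to 53.2 in sham DG. All 7 border macrophage markers were at 0 in TBI NSCs and in sham IPCs. The members were kept by CLEAR for 13 of 27 values in TBI NSCs, 10 of 18 in sham NSCs, 13 of 27 in TBI IPCs and 11 of 27 in sham IPCs. For DG of this cohort the filtered table lists all 49922 genes, so the filter removed nothing there. The filter thus kept about as many members in NSCs as in IPCs here.

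NSCs and IPCs of the injury cohort, TBI and sham together, were not called different for any member, against 0.277% of all genes, and 2 members, Aif1 and Tmem119, had an unadjusted p under 0.05, against 12% of all genes. Tmem119 had a log2 difference of 2.89 ± 1.29 for NSC over IPC (limma adjusted p = 0.4) and C1qb one of -1.59 ± 0.85 (adjusted p = 0.478). Aif1 passed the filter on low values only through DG and was under 3 reads in every IPC library, so no fold is given for it. Aif1 was higher in each TBI NSC mouse than in each TBI IPC mouse, as were 5.68% of all genes, and C1qb was lower, as were 4.23%. Between sham NSCs and sham IPCs only Tmem119 did not overlap, higher in NSCs, as in 9.68% of all genes. Cx3cr1, P2ry12, Csf1r, C1qc and Ctss ran from -0.65 for Cx3cr1 to 0.74 for Csf1r. C1qa was at 0 to 25.7 normalized counts in NSCs, and no fold is given for it. DESeq2 called 2 members, Aif1 higher and C1qb lower, and edgeR called 0. The share of all genes that DESeq2 called there is not given here, and its Aif1 call rests on IPC values under 3 reads. The members' median was -0.17, against 0.09 for all genes, whereas it was 3.53 in the untreated cohort. That contrast between cohorts was not tested, because the cohorts were normalized separately.

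Against whole DG of the same cohort, 7 of 9 members were called lower in NSCs, as were 32.5% of all genes, and 8 of 9 lower in IPCs, as were 36.5% of all genes. In NSCs the called members other than C1qa ran from -6.80 for Cx3cr1 to -3.37 for Aif1 on the log2 scale. C1qa in NSCs, at 0 to 25.7, and Aif1 in IPCs, at or under 1.22, passed the filter on low values only through DG. Both are in the counts of called members, and no fold is given for them. P2ry12, at -0.60 ± 0.51 (limma adjusted p = 0.336), and Tmem119, at -1.25 ± 1.29 (adjusted p = 0.426), were not called. In IPCs P2ry12 alone was not called, at -0.88 (limma adjusted p = 0.126), and the call of Tmem119 was lost with edgeR, at -2.20 (adjusted p = 0.116). P2ry12 was the member with the smallest difference from DG in both sorted populations, and its 2546 exonic bases all lie within Med12l, which had 1.87 to 165 normalized counts in the sorted libraries of this cohort. The sum of the 9 was 162 to 666 in TBI NSCs, 612 to 1003 in sham NSCs, 414 to 898 in TBI IPCs and 200 to 661 in sham IPCs.

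The TBI response in NSCs minus that in IPCs was not called for any member, against 0.0388% of all genes, and 2 members, C1qb and Aif1, had an unadjusted p under 0.05, against 8.1% of all genes. C1qb had -5.51 ± 1.69 on the log2 scale (unadjusted p = 0.00579, limma adjusted p = 0.37), while for Aif1 the IPC side was under 3 reads in every library. DESeq2 called C1qb and edgeR called 0, and the share of all genes that DESeq2 called there is not given here. C1qb stood lower in TBI than in sham NSCs and higher in TBI than in sham IPCs. Sham IPC mouse 6 was at 0 and TBI NSC mouse 3 at 2.19, which is 3 reads. Set against the TBI response of DG, that of NSCs was called for 0 members and 0.0% of all genes, and that of IPCs for 0 members and 0.00554% of all genes. In each of these, 1 member had an unadjusted p under 0.05 by limma, Aif1 for NSCs, against 4.27% of all genes, and C1qb for IPCs, at 3.75 ± 1.59 (adjusted p = 0.953), against 5.1% of all genes. Aif1 was under 3 reads in both sham NSC libraries.

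Beyond the 9, a list of 25 other microglia genes was read in the same fits. In untreated mice 13 of the 25 were called higher in NSCs than in IPCs and 0 lower, against 1.15% of all genes higher, with a median log2 difference of 2.97. With the mouse as a block none of the 13 was called. In IPCs 18 of the 25 were called lower than in DG, against 31.1% of all genes. Laptm5, at -1.38 ± 0.46, Itgb2, at -3.67 ± 1.31, and Tgfbr1, at -2.12 ± 0.52, were called lower in NSCs than in DG, against 30.7% of all genes, and 0 were called higher. In the injury cohort 18 were called lower in NSCs than in DG, against 32.5% of all genes, and 21 in IPCs, against 36.5%. There Irf8, a transcription factor of myeloid cells, was the 1 called higher in NSCs than in IPCs, at 4.59 ± 0.81 (adjusted p = 0.0353), against 0.216% of all genes. Lgmn, a lysosomal protease and among the most abundant of the list, was not called for NSC over IPC in untreated mice, at 0.52 ± 0.17 (limma adjusted p = 0.173). Olfml3, a secreted protein of microglia, was higher in NSCs than in IPCs by 1.56 ± 0.31 (adjusted p = 0.0432), and Tgfbr1, a receptor for TGF-beta, had -0.85 ± 0.52 (adjusted p = 0.449). None was called between TBI and sham by limma, which called 0.0% of all genes there.

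The genes whose pattern was most like the mean of the members were Cd53, Sptbn1, Trem2, Gpr34, Ly86, P2ry13, Selplg and Siglech, among 16636 genes. The measure was the smaller Pearson r of 2, over 21 untreated and over 17 injury cohort libraries, and it ran from 0.81 for Siglech to 0.89 for Cd53. The libraries share kits, mice and technical replicates, so these values are descriptions. All but Sptbn1, a spectrin, were on the list of other microglia genes. Trem2, the lipid-sensing receptor of microglia, had 9.59 to 782 normalized counts in untreated NSC libraries and 0 to 8.44 in untreated IPC libraries, against 181 to 227 in untreated DG. In the injury cohort it was 0 to 39.0 in TBI NSCs, 32.7 to 35.2 in sham NSCs, 0 to 1.69 in TBI IPCs and 0 to 4.87 in sham IPCs.

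Among the members themselves, each gene's r with the mean of the other 8 over the 18 untreated sorted libraries ran from 0.70 for Tmem119 to 0.93 for C1qb. Over the 11 sorted libraries of the injury cohort it ran from -0.21 for C1qc to 0.81 for Ctss. In the injury cohort most of these counts were low.

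Of 13 listed complement partners of C1q, 12 were tested in untreated mice, and 1, Cd93, was called higher in NSCs than in IPCs, against 1.15% of all genes. Against DG, 4 were called higher and 2 lower in NSCs, beside 12.4% and 30.7% of all genes, and 4 higher and 4 lower in IPCs, beside 11.4% and 31.1%. The shares called lower were near or below those of all genes. Serping1, the inhibitor of the C1 proteases, had 1267 to 2476 normalized counts in untreated NSC libraries and 1314 to 2882 in untreated IPC libraries, against 252 to 293 in DG, and was called higher than DG in NSCs at 2.71 ± 0.13 and in IPCs at 2.84 ± 0.13. C4b, a component that C1 cleaves, had 0 to 118 in untreated NSC libraries and 0 to 197 in untreated IPC libraries, against 659.5 to 749 in DG. It was called lower than DG in NSCs at -5.79 ± 1.74 (limma adjusted p = 0.0224) and in IPCs at -7.46 ± 1.74 (adjusted p = 0.0075). Cd59a, which blocks the membrane attack complex, was called higher in NSCs than in DG at 3.92 ± 0.47 (adjusted p = 0.000178).

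A list of 10 genes held ligands of the member receptors, sheddases, and enzymes and other receptors of purines. Of these, 1 was called higher and 3 lower in untreated NSCs than in DG, and 0 higher and 3 lower in IPCs. Over all genes 12.4% were higher and 30.7% lower in NSCs, and 11.4% higher and 31.1% lower in IPCs, so 3 of 10 called lower is close to the share of all genes. Cx3cl1, the ligand of Cx3cr1, had 38.7 to 477 normalized counts in untreated NSC libraries and 0 to 746 in untreated IPC libraries, against 19775 to 21511 in untreated DG. It was called lower than DG in both, at -6.95 ± 0.72 in NSCs and -7.61 ± 0.72 in IPCs. Il34, a ligand of Csf1r, had 0 to 443 in NSC libraries and 50.2 to 1120 in IPC libraries, against 785 to 856 in DG, and was called lower in NSCs than in DG at -1.91 ± 0.41 (limma adjusted p = 0.00476). None of the 10 was called between NSCs and IPCs. Adam10 and Adam17, the proteases that release Cx3cl1 from the membrane, had NSC over IPC differences of 0.78 ± 0.20 and 0.84 ± 0.58, neither of them called.

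Of 9 other lysosomal genes, the cathepsins and their partners, 2, Ctsc and Ctsh, were called higher in NSCs than in IPCs, against 1.15% of all genes, with a median of 0.50 over the list. Ctsb had 6178 to 12849 normalized counts in untreated NSC libraries and 5934 to 12676 in untreated IPC libraries, and its NSC over IPC difference of 0.01 ± 0.15 stood beside 4.03 ± 0.36 for Ctss. Ctsd had 0.08 ± 0.20. Cst3, the secreted cathepsin inhibitor cystatin C, had 0.31 ± 0.23 and Ctsa 0.88 ± 0.17, under the log2 difference of 1 needed for a call. None of the list was called between TBI and sham by limma, which called 0.0% of all genes there.

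Genes of activated microglia and acute cytokines stood higher in TBI DG than in sham DG by their fitted values. All 11 tested of the 14 had a positive log2 difference, with a median of 1.81, against 45.3% of all genes and a median of -0.04. None of the list was called by limma between TBI and sham in DG, NSCs or IPCs. Limma called 0.0% of all genes in these comparisons. Cd14, the co-receptor for lipopolysaccharide, had 151 to 402 normalized counts in TBI DG, against 36.1 to 115 in sham DG, a difference of 2.18 ± 0.46 (limma adjusted p = 0.128). Spp1, osteopontin, had 70.5 to 110 in TBI DG, against 17.4 to 43.4 in sham DG, at 1.69 ± 0.35 (adjusted p = 0.128). Gpnmb, at 0.33 ± 0.28, and Lpl, at 0.14 ± 0.20, differed by less. The 9 microglia genes had a median of -0.27 in the same libraries.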

How the data were processed

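The authors sorted cells or dissected whole DG, sequenced the libraries and, per their methods and the labels, removed ribosomal, mitochondrial and PhiX reads with HISAT2 (2.0.6), aligned to GRCm38, and counted reads per GENCODE M14 gene with featureCounts without strand. The labels name GRCh38 as build, which is a human one. The deposited values are a signal, the counts divided by DESeq2 size factors, and every one of them was a whole number of reads within 0.05 once multiplied back. CLEAR-filtered tables were used for filter status only. The labels list 45 samples, of which 7 are second runs of a library with no column of their own. The deposited tables mark those 7 columns as combined, so they hold both runs. A further 1 column was not used, and since it shifts the title line of the unfiltered injury table, columns there were matched by library name.

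Technical replicates were averaged per mouse. Genes with a mean of at least 10 were tested on log2(normalized count + 1), where a fold is smaller than the true one for low genes, with limma (3.58.1, trend, 2-sided, Benjamini-Hochberg over all genes tested) in R 4.3.3, and called at an adjusted p under 0.05 and a log2 difference of at least 1. Untreated fits shared 1 spread over 3 groups, sorted comparisons of the injury cohort over 6, and TBI with sham used those 2 groups only. Alternatives were pseudocounts of 0.5 and 10, no filter, CLEAR genes, edgeR (4.0.16) and DESeq2 (1.42.0) on the recovered reads, other scaling, and leaving out each mouse. Symbols on several rows (310) were left out, except that Itgam is shown per row. NSCs and IPCs with the same number came from the same mouse, and same-numbered deviations correlated at 0.046 to 0.11. The step was tested on simulated data. The members and lists were chosen with earlier results of these data known. All 9 members are named, and of each list at most 4 genes, those most abundant in the injury cohort, some of which are not reported here. Genes named beyond these (Ctsc, Ctsh, Cd93, Ly6c1, Laptm5, Itgb2, Irf8) were named after their values were seen, as the few called, and the 8 genes of like pattern by their correlation.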

Additional observations from a re-analysis of the deposited data

Results flagged for a closer look

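In 6 of 18 groups of 9 untreated libraries that were checked, 1 library stood apart from the others by Dixon's criterion, which chance meets in about 1 group in 20 where values are normally spread. It was taken on untransformed counts, for which that rate was not checked. In NSC mouse 2, technical replicate 2 held the highest Csf1r, at 1458 normalized counts against 682 in the next library, and the highest C1qa, at 1474 against 764. Technical replicate 3 of the same NSC mouse held the highest Cx3cr1, at 1174 against 583. In IPC mouse 2, technical replicate 2 held the highest P2ry12, at 1375 against 418, and the highest C1qa, at 626 against 113. That IPC library is the one with the fewest genes kept by CLEAR, 6110. In IPC mouse 3, technical replicate 2 held the highest Tmem119, at 144 against 16.2. The next library came from the same mouse for Csf1r and P2ry12, and from another mouse for Cx3cr1, Tmem119 and both C1qa values. These gaps thus lie in part within 1 animal and in part between animals.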

How the results depend on the processing

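For NSC over IPC in untreated mice, where 3 of 9 members were called, the count was 5 with a pseudocount of 10, 8 with DESeq2, 9 with technical replicates as units, 6 without the library of IPC mouse 2, technical replicate 2, 0 in a fit of the 2 groups alone and 0 with the replicate block, and leaving out a mouse gave 3 to 7. Technical replicates as units treat libraries of the same mouse as independent, which they are not. For NSC over DG (1 called) edgeR gave 0 and the 2 groups alone 3. In the injury cohort, NSC over IPC (0 called) gave 2 with DESeq2 and 0 to 1 on leaving out a mouse, being 1 without TBI NSC mouse 2 (Aif1) and 1 without sham IPC mouse 6 (C1qb). NSC over DG (7 called) gave 4 with DESeq2, and IPC over DG (8 called) gave 5. DESeq2 gave no adjusted p for 3 members in that cohort. With genes kept by CLEAR in every library 1 member remained to test and both counts were 0. In untreated mice no member was kept in every library, so that setting was not run. The TBI response of NSC minus that of IPC (0 called) gave 1 with DESeq2. The share of all genes called in the same fit is not set beside these alternative counts. They describe how a count moved with the setting, and not the members against other genes. Of 223 alternative counts, 206 were within 1.5 times the main count, those of TBI against sham among them, and the block changed no other call. Of 935 alternative values of single log2 differences, 879 kept direction and call, 26 lost the call, 30 gained it and 0 changed sign. A further 54 differences, none called in any fit, are given only as ranges or values, and 34 of them changed sign in some fit. Sorted groups of 2 and 3 mice with many counts near the floor limit what could be detected.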
